A study of Mus musculus with 6 samples.

Results

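The Hedgehog pathway genes Ihh, Ptch1, Smo, Gas1, Cdon, Boc, Gli1, Gli2, Gli3 and Gpr161 were followed in F9 cells, a line of mouse teratocarcinoma cells that can be driven to differentiate with retinoic acid (RA). The rows of the deposited expression table that carry these gene symbols were taken, and this gave 10 of the 25904 genes in the table. All 10 were among the 12332 genes that had a mean of at least 20 normalised reads and entered the tests. RNA sequencing was done on 6 libraries, 1 for each combination of a short hairpin RNA and a treatment. The hairpins were shGFP, which is the control, shCtbp2, aimed at the transcriptional corepressor Ctbp2, and shRxr, aimed at a retinoid X receptor that the labels do not name further. All cells grew in medium with charcoal-stripped fetal calf serum, and stayed untreated or received all-trans RA at 1 µM during the last 48 h of culture. The labels name no second culture or clone for any group, so no difference between libraries of this series has a replicate check within its group.

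Hedgehog ligands are secreted proteins that bind the receptor Patched1 (Ptch1) on a receiving cell, with help from the co-receptors Gas1, Cdon and Boc. Unbound Patched1 holds the membrane protein Smoothened (Smo) inactive. Once released, Smoothened acts at the primary cilium and shifts the transcription factors Gli2 and Gli3 from repressor towards activator forms, while Gpr161, a receptor of the cilium, opposes this by raising cyclic AMP. Gli1 and Ptch1 are themselves widely used readouts of pathway activity, and Indian hedgehog (Ihh) is known as a product of the endoderm that forms from F9 cells and of the visceral endoderm of the early embryo.

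Levels are given as normalised reads, meaning reads per 10000000 reads that fell in genes. The 6 libraries held 9955808 to 13322506 such reads, so that 1 read was worth between 0.751 and 1.00 normalised reads. Ctbp2 was at 210.1 and 55.4 normalised reads in the untreated and RA-treated shCtbp2 libraries, against 1811 and 701 in shGFP. Rxra was at 73.7 and 82.4 in the shRxr libraries, against 520 and 805 in shGFP, and Rxrb was at 546 to 1085 over all 6 libraries. The hairpins therefore matched their labels, with Rxra as the receptor gene that was low in shRxr. All 10 of a list of established RA-induced genes rose with RA (limma, adjusted p under 0.05). Of the pluripotency markers 5 of 10 fell, with summed levels of 60273 to 62772 in untreated and 27207 to 56502 in RA libraries. Of the primitive and parietal endoderm markers 13 of the 14 tested rose, with sums of 9858 to 10913 and 21990 to 41604. Of the visceral endoderm markers, a list that holds Ihh, 3 of the 7 tested rose and 1 fell, with sums of 2652 to 3782 and 2681 to 5228. Of that list 8 of 15 had a mean under 20 normalised reads and were not tested. Among these Cer1 had no read in any library, Afp and Ttr stayed at or below 4.50 normalised reads, and Bmp2 and Rbp4 were at 4.03 and 7.25 in untreated and 51.8 and 41.3 in RA-treated shGFP cells. Few markers of other cells were tested: 2 of 4 neural genes rose, and 1 of 3 mesoderm and fibroblast genes rose and 1 fell. Of all genes tested 10.8% rose and 4.63% fell. Neural sums were 1220 to 1726 in untreated and 1426 to 1650 in RA libraries, and mesoderm and fibroblast sums 361 to 556 and 702 to 950. The 1 tested blood gene, Cd68, gave a log2 RA effect of -0.19 (limma, adjusted p = 0.70). The part of the endoderm markers in the Hedgehog values below was not tested, and in bulk RNA a change in how many cells carry a transcript cannot be told apart from a change in RNA per cell. The RA-treated shCtbp2 library stood apart in that its deviations from the mean of all libraries followed the GC content of genes across the tested genes. Spearman rho was 0.65 there, 0.25 in RA-treated shGFP, and -0.44 to -0.40 in the other libraries. Values corrected for GC content and length are given for most ratios of the 10 genes that rest on RA-treated shCtbp2, and for some that rest on RA-treated shGFP. The marker genes, the wider lists and the limma estimates of the shCtbp2 effect on the 10 genes are given without that correction.

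RefSeq promoter windows of 300 bases, from 250 bases before to 50 bases after a start site on the build GRCm38.p6, were found for 8 of the 10 genes, with a pair of windows for Gpr161. Each was searched on both strands for the Gli-binding word GACCACCCA, which was in 0.253% of 32851 such windows of the genome. Its core CCACCCA, which lies inside it, was in 9.30%. Of the RA receptor half-site words, AGGTCA was in 16.3% of windows. The second such word, GGGTCA, was in 13.7% of windows. The last one, GGTTCA, was in 10.4% of windows. Only the windows of Cdon and the first of Gpr161 held any of them. The 4 windows below are those of Gas1, which had the largest RA change of the 10 genes, of Ihh, the ligand among them, and of Cdon and Gpr161, where capitals mark the words found.
Gas1 (chr13:60177486-60177785, minus strand): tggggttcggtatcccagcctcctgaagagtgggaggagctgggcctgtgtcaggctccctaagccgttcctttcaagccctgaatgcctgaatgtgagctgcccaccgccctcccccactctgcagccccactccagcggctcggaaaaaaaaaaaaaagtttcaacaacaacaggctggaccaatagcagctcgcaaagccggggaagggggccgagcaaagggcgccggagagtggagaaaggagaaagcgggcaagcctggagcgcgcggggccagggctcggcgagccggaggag
Ihh (chr1:74951623-74951922, minus strand): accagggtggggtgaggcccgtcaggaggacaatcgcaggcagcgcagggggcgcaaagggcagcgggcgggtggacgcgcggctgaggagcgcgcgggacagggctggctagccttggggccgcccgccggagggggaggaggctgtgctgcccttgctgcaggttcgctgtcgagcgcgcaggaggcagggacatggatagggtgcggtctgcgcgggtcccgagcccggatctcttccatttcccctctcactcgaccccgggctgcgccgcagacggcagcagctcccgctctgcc
Cdon (chr9:35451826-35452125, plus strand): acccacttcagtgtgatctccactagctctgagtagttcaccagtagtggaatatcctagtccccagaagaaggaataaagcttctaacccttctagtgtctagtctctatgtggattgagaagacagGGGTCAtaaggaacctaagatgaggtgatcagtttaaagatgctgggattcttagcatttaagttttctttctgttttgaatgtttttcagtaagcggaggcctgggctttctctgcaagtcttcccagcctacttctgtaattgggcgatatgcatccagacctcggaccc
Gpr161, first window (chr1:165295516-165295815, plus strand): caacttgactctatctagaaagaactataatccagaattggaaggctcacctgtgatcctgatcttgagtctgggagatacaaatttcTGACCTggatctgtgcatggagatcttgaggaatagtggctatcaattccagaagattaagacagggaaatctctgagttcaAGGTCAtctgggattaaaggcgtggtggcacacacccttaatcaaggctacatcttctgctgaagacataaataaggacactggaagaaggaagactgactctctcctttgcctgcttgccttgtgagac
In Cdon the word GGGTCA began 122 bases before the start site on the strand of the gene. In Gpr161 AGGTCA began 80 bases before it on the strand of the gene, and lay a second time, on the opposite strand, in the bases that begin 162 before it, where it is printed as its reverse complement. The Gas1 and Ihh windows held none of the words, which says only that these letters are not in these windows.

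The pathway genes did not share 1 response to RA. In the shGFP control line, with the values as deposited, the ligand Ihh, the co-receptors Gas1, Cdon and Boc, and Gli3 and Gpr161 were at least 2-fold higher after RA. Gli1 was at least 2-fold lower. Over the 3 lines together, 3 of the 10 genes rose with RA and 0 fell (limma on log2 of normalised reads + 10, with the lines standing in as replicates, adjusted p under 0.05). Of all 12332 genes tested 10.8% rose and 4.63% fell. Gas1 had the largest effect, a log2 change of 3.79 ± 0.43 (SE, 3 lines, limma adjusted p = 0.000145). Boc followed with 1.84 ± 0.27 (limma adjusted p = 0.00076) and Ihh with 1.56 ± 0.32 (limma adjusted p = 0.0060). All 3 were higher with RA in 3 of 3 lines. The SEs from limma, here and below, draw on the spread of all genes tested as well as the gene's own. At an unadjusted p under 0.05 there were 5 higher and 1 lower, which adds Smo and Cdon above and Gli1 below, where 18.5% of all genes were higher and 12.4% lower. Fitting limma with voom weights to the recovered reads again gave 3 raised and 0 lowered. The median log2 effect was 0.74 over the 10 genes and 0.07 over all genes tested.

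**Figure D1:**
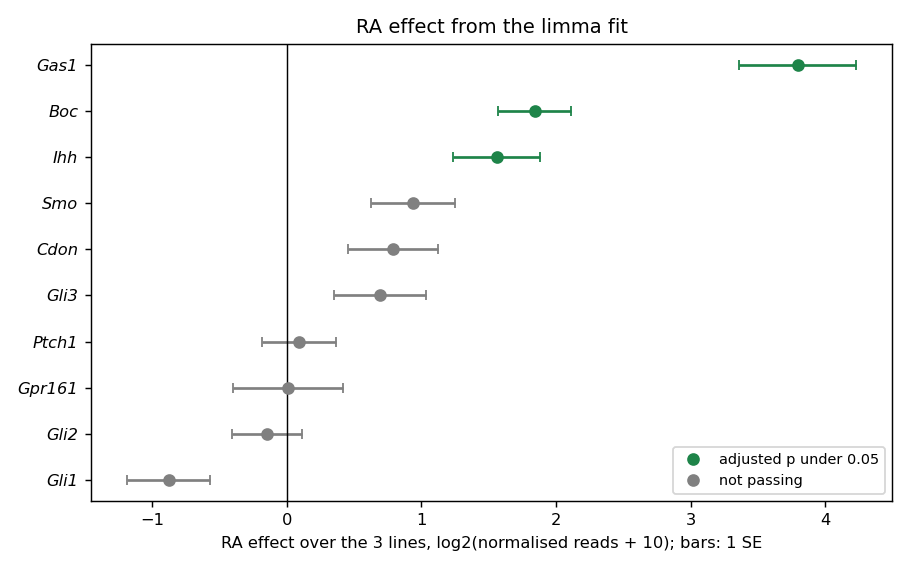
RA effect on each of the 10 genes from the limma fit over 3 lines, as a difference in log2(normalised reads + 10) on the horizontal axis; points are estimates and bars 1 SE. Gas1, Boc and Ihh, in green, passed an adjusted p of 0.05, and the estimates run from 3.79 for Gas1 to -0.88 for Gli1.

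The calls for Gas1 and Boc did not depend on which lines entered the fit. Ihh lost its call without the shGFP line or either of its libraries (limma adjusted p 0.0555 to 0.0653) and without the shCtbp2 line or either of its libraries (limma adjusted p 0.0689 to 0.0826). Without the shCtbp2 line or 1 of its libraries, Gli3 (1.21, limma adjusted p 0.0465 to 0.0471) and Cdon (1.28, limma adjusted p 0.0399 to 0.0434) rose and Gli1 fell by 1.25 (limma adjusted p 0.0404 to 0.0420). Without the shRxr line or 1 of its libraries, Smo rose by 1.32 (limma adjusted p 0.00381 to 0.00421).

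Ihh (ENSMUSG00000006538, chr1:74991891-74998246 in mm9) encodes the ligand Indian hedgehog. It was at 13.7 normalised reads in untreated and 73.6 in RA-treated shGFP cells, at 11.6 and 72.3 in shCtbp2, and at 4.18 and 17.1 in shRxr. The RA library was thus above the untreated library of every line, while both shRxr libraries were below their counterparts. The highest untreated value, 13.7 in shGFP, was below the lowest RA value, 17.1 in shRxr. Both rest on 17 reads, and their counting intervals overlap (7.98 to 21.9 and 9.95 to 27.3). The change with RA was 5.37-fold in shGFP (95% counting interval 3.19 to 9.59), 6.24-fold in shCtbp2 (3.49 to 11.97) and 4.08-fold in shRxr (1.45 to 14.1). These intervals, like those below, are exact binomial and cover counting error only, and the counts were small, at 5 to 98 reads. Once GC content and length were corrected for, the log2 response of Ihh went from 1.93 to 0.90 in shCtbp2 and from 1.82 to 1.42 in shGFP. Sonic hedgehog (Shh) had 0 reads in the 3 untreated libraries and 12.01, 2.97 and 3.01 normalised reads after RA in shGFP, shCtbp2 and shRxr, and Desert hedgehog (Dhh) was at 2.48 to 9.90. Both were too low to be tested.

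Ptch1 (ENSMUSG00000021466, chr13:63610261-63674474 in mm9) encodes the receptor. Its level was 832 normalised reads in untreated and 1195 in RA-treated shGFP cells, 855 and 618 in shCtbp2, and 916 and 1061 in shRxr. It was the only member of the 10 whose log2 level ranged over less than 1 across the 6 libraries, while 56.6% of all genes tested had a range of at least 1. With RA it was 1.44-fold higher in shGFP (1.33 to 1.55) and 1.16-fold higher in shRxr (1.06 to 1.26), and 1.38-fold lower in shCtbp2 (1.25 to 1.53). This last direction turned when GC content and length were corrected for, from a log2 difference of -0.46 to 0.35.

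Smo (ENSMUSG00000001761, chr6:29685694-29711365 in mm9), which transmits the signal across the membrane, was at 863 and 1578 normalised reads without and with RA in shGFP, at 376 and 1311 in shCtbp2, and at 1051 and 1185 in shRxr. The untreated shCtbp2 library was the lowest of the 6, and all RA libraries were above all untreated ones. The ratio of RA to untreated was 3.49 in shCtbp2 (3.14 to 3.89), against 1.83 in shGFP (1.70 to 1.97) and 1.13 in shRxr (1.04 to 1.22). Correcting for GC content and length took the log2 response of Smo from 1.78 to 1.04 in shCtbp2 and from 0.86 to 0.50 in shGFP. Its effect over the lines, 0.94 ± 0.31 (SE), missed the threshold (limma adjusted p = 0.058). A short gene model, Gm13717, lies within Smo and was at 0.805 to 5.86 normalised reads.

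Gas1 (ENSMUSG00000052957, chr13:60275766-60278726 in mm9) encodes a membrane-anchored co-receptor that helps ligand reach Patched1. In shGFP cells it went from 17.7 normalised reads to 1109 with RA, in shCtbp2 from 8.27 to 223, and in shRxr from 23.4 to 164. Every RA value was above every untreated one, and the shGFP library was far above the other RA libraries. RA brought a 62.6-fold higher level in shGFP (41.2 to 100.2), 26.9-fold in shCtbp2 (14.4 to 56.9) and 6.99-fold in shRxr (4.66 to 10.8). The log2 response of 5.34 in shGFP compares with 3.67 in shCtbp2, or 2.81 after correction for GC content and length, and with 2.38 in shRxr. With 1 library per group these differences between lines have no test.

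Cdon (ENSMUSG00000038119, chr9:35228713-35315236 in mm9) encodes a cell-surface co-receptor of the immunoglobulin family. It was at 173 normalised reads in untreated and 555 in RA-treated shGFP cells, at 184 and 159 in shCtbp2, and at 184 and 362 in shRxr. The untreated values lay close together, and the RA values spread out, with shGFP the highest, shRxr between and shCtbp2 the lowest. The level with RA was 3.20-fold higher in shGFP (2.75 to 3.75) and 1.96-fold higher in shRxr (1.66 to 2.33). In shCtbp2 it was 1.15-fold lower, within counting error (0.94 to 1.42), and 0.30 higher on the log2 scale after correction for GC content and length. Cdon contains the model of a 5S ribosomal RNA, which had no read in any library.

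Boc (ENSMUSG00000022687, chr16:44485158-44559010 in mm9), the related co-receptor, was at 114 and 462 normalised reads without and with RA in shGFP, at 103 and 471 in shCtbp2, and at 187 and 551 in shRxr. It gave the most even response of the co-receptors, and in contrast to Gas1 and Cdon its RA levels were close in shGFP and shCtbp2. The rise was 4.04-fold in shGFP (3.36 to 4.89), 4.56-fold in shCtbp2 (3.73 to 5.59) and 2.95-fold in shRxr (2.52 to 3.47). The log2 response was 2.09 in shCtbp2 and 1.93 in shGFP, and 1.52 and 1.60 after correction for GC content and length.

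Gli1 (ENSMUSG00000025407, chr10:126766945-126778645 in mm9), an activator and a target of the pathway, was at 252 and 93.1 normalised reads without and with RA in shGFP, at 108 and 97.0 in shCtbp2, and at 208 and 88.4 in shRxr. The 3 RA values and the untreated shCtbp2 value formed a low set, below the untreated shGFP and shRxr values. The level with RA was 2.71-fold lower in shGFP (2.19 to 3.36) and 2.36-fold lower in shRxr (1.84 to 3.04). In shCtbp2 it was 1.11-fold lower, within counting error (0.85 to 1.46), and correction for GC content and length took that log2 difference from -0.14 to -0.90. The same correction took the difference in shGFP from -1.35 to -1.74. Over the lines the estimate was -0.88 ± 0.31 (SE, lower in 3 of 3 lines) and missed the threshold as deposited (limma adjusted p = 0.073). It passed with equal upper quartiles (-0.88, limma adjusted p = 0.049), with median-of-ratios scaling (-0.95, limma adjusted p = 0.037) and with the correction for GC content and length (-1.27, limma adjusted p = 0.0072). The end of Gli1 overlaps that of Arhgap9, which was at 24.97 to 76.2 normalised reads and higher with RA in every line. The strand setting of the counting is not given in the sources used here, so reads in the overlap may not be told apart.

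Gli2 (ENSMUSG00000048402, chr1:120730709-120950196 in mm9), which carries most of the activator function, was at 822 and 709 normalised reads without and with RA in shGFP, at 619 and 708 in shCtbp2, and at 1311 and 975.3 in shRxr. Both shRxr libraries were above the other libraries of their treatment. With RA the level was 1.16-fold lower in shGFP (1.06 to 1.27), 1.14-fold higher in shCtbp2 (1.03 to 1.27) and 1.34-fold lower in shRxr (1.24 to 1.46). The shCtbp2 direction turned with the correction for GC content and length, from 0.19 to -0.23 on the log2 scale. The limma estimate was -0.15 ± 0.26 (SE, adjusted p = 0.74).

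Gli3 (ENSMUSG00000021318, chr13:15555068-15821859 in mm9), the main repressor of the family, was at 227 and 713 normalised reads without and with RA in shGFP, at 177 and 138 in shCtbp2, and at 262 and 466 in shRxr. As for Cdon, the order among RA libraries was shGFP, shRxr, shCtbp2, and the RA-treated shCtbp2 library was the lowest of all 6. With RA the level was 3.14-fold higher in shGFP (2.75 to 3.60), 1.78-fold higher in shRxr (1.54 to 2.06) and 1.29-fold lower in shCtbp2 (1.03 to 1.60). After correction for GC content and length, the shCtbp2 difference turned from -0.34 to 0.23 on the log2 scale, and Gli3 then rose over the lines by 0.85 (limma adjusted p = 0.045, against 0.19 as deposited). Cdon also rose under that correction, by 0.91 (limma adjusted p = 0.033, against 0.13).

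Gpr161 (ENSMUSG00000040836, chr1:167232756-167253061 in mm9), which restrains the pathway at the cilium, was at 32.2 and 81.8 normalised reads without and with RA in shGFP, at 76.9 and 22.8 in shCtbp2, and at 46.9 and 60.3 in shRxr. Its order in the shCtbp2 line was the opposite of that in shGFP. The level with RA was 2.54-fold higher in shGFP (1.75 to 3.75) and 3.38-fold lower in shCtbp2 (2.12 to 5.59), and in shRxr 1.29-fold higher, within counting error (0.88 to 1.88). The shCtbp2 direction stayed after correction for GC content and length, at -1.16 on the log2 scale against -1.41 as deposited. The limma estimate over the lines was close to zero, 0.01 ± 0.41 (SE, adjusted p = 0.99).

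**Figure D2:**
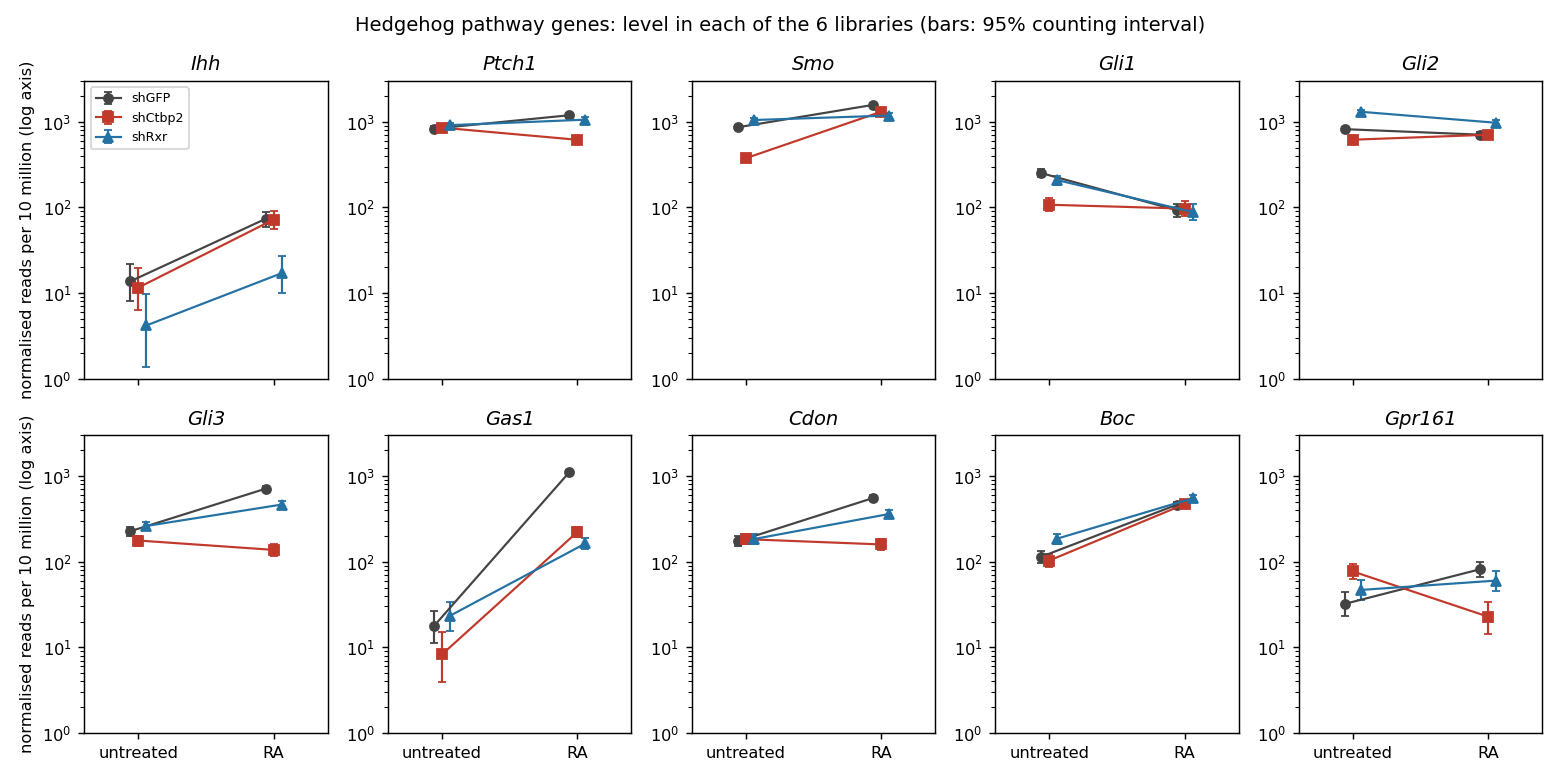
Level of each of the 10 genes in reads per 10000000 (log axis) in untreated and RA-treated libraries of the shGFP, shCtbp2 and shRxr lines; each point is 1 library, bars are 95% counting intervals, and lines join the libraries of a line. Gas1 runs from 17.7 to 1109 in shGFP, Boc has near-parallel lines, and Gpr161 has crossing ones.

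Genes were also counted by size, as those at least 2-fold apart on the log2(normalised reads + 10) scale, which holds for every such count below. RA left 6 of the 10 genes at least 2-fold higher and 1 lower in shGFP, where 13.4% and 7.07% of all genes tested were. After correction for GC content and length, Gpr161 was at 0.98 in shGFP, under 2-fold. In shCtbp2 these counts were 4 (Ihh, Smo, Gas1 and Boc) and 1 (Gpr161), beside 15.1% and 19.3% of all genes. The first count became 3, without Ihh, after correction for GC content and length, with no share of all genes given at that setting. In shRxr they were 2 (Gas1 and Boc) and 1 (Gli1), beside 5.26% and 1.46%. Ihh, 4.08-fold higher in shRxr as a plain ratio, was at 0.93 on this scale. The median log2 response of the 10 genes was 1.36, 0.03 and 0.56 in the 3 lines in this order, and that of all genes was 0.12, 0.07 and 0.09. Every RA library was above every untreated one for 4 genes, Ihh, Smo, Gas1 and Boc, as for 24.1% of all genes tested, and below for 1, Gli1, as for 13.9%. For Ihh the nearest RA and untreated values were within counting error of each other.

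**Figure D3:**
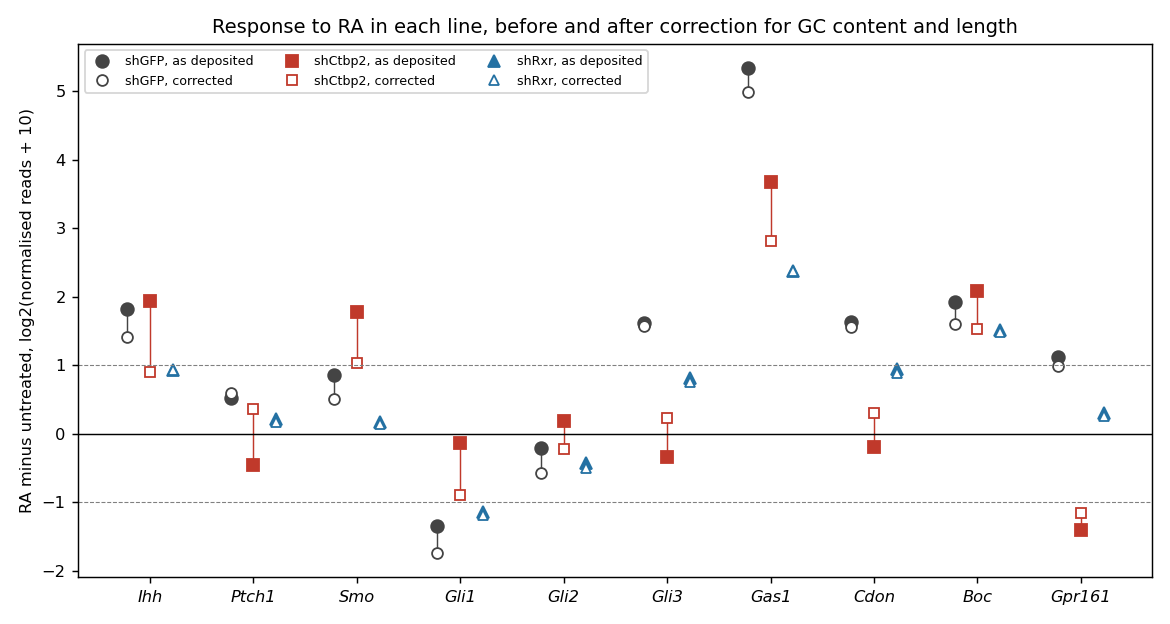
RA-treated minus untreated level of each gene in each line, as log2(normalised reads + 10), with filled symbols as deposited and open symbols after correction for GC content and length; dashed lines mark 2-fold. In shCtbp2 the correction moves Ptch1, Gli2, Gli3 and Cdon across zero, and Gpr161 stays below it at -1.16.

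Set against the shGFP control, the genes at least 2-fold apart in the shCtbp2 line, on the same scale, were Smo, Gli1 and Gpr161 without RA, and Gas1, Cdon, Gli3 and Gpr161 with it. Smo and Gli1 were the lower ones without RA, all 4 were lower with RA, and Gpr161 was higher without RA and lower with it. Both knock-down lines are compared with the same shGFP libraries, which also enter the RA response of the control, so these comparisons are not independent of each other.

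Untreated shCtbp2 cells had 2.30-fold less Smo (2.06 to 2.57) and 2.34-fold less Gli1 (1.90 to 2.90) than untreated shGFP cells. Gpr161 was 2.39-fold higher there (1.63 to 3.55). On the log2(normalised reads + 10) scale these were the 3 members past 2-fold, 1 higher and 2 lower, beside 1.39% and 2.34% of all genes tested. Gas1, at 10 reads against 22, was 2.14-fold lower as a plain ratio, within counting error (0.97 to 5.07), and at -0.60 on that scale. Correction for GC content and length left Smo, Gli1 and Gpr161 at -1.13, -1.08 and 1.06 on the log2 scale.

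In RA, Gli3 was 5.18-fold lower in shCtbp2 than in shGFP (4.33 to 6.24) and Gas1 4.98-fold lower (4.33 to 5.76). Gpr161 was 3.59-fold lower (2.28 to 5.91) and Cdon 3.48-fold lower (2.93 to 4.15). Hence 4 of the 10 genes were at least 2-fold lower and 0 higher, beside 14.8% and 3.18% of all genes. Ptch1 came next, 1.93-fold lower (1.76 to 2.13), and Boc and Ihh were within counting error of the control, at ratios of 1.02 in either direction. After correction for GC content and length the log2 differences were -2.73 for Gas1, -1.67 for Gli3, -1.17 for Cdon, -1.08 for Gpr161 and -0.18 for Ptch1. The same correction took Ihh from -0.02 to -0.55, Smo from -0.26 to -0.60, Gli1 from 0.05 to -0.24 and Boc from 0.03 to -0.17.

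Over both treatments the limma test of shCtbp2 against shGFP called 0 of the 10 genes in either direction, where it called 0.105% of all genes higher and 0.0405% lower. At an unadjusted p under 0.05 there were 2, both lower, namely Gas1 (-1.43 ± 0.53 SE, limma adjusted p = 0.41) and Gli3 (-1.32 ± 0.42 SE, limma adjusted p = 0.28), and voom called 0. At that threshold 2.56% of all genes were higher and 6.28% lower. Here the 2 treatments stand in as replicates, so a gene that differed in 1 treatment alone enters the residual. Without the shRxr line or 1 of its libraries, Gas1 (limma adjusted p 0.0090 to 0.0104) and Gli3 (0.0210 to 0.0232) passed with the same estimates. Without the untreated shCtbp2 library, the estimates were -2.09 for Gli3 and -1.57 for Cdon. The shCtbp2 line is then represented by its RA-treated library alone, which carries the GC shift named above and was not corrected here.

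Between untreated shRxr and shGFP cells, 0 of the 10 genes were 2-fold higher and 0 lower on the log2(normalised reads + 10) scale, beside 0.389% and 0.0649% of all genes tested. Ihh, at 5 reads, was 3.27-fold lower without the added constant (1.16 to 11.3), Boc was 1.63-fold higher (1.32 to 2.03) and Gli2 1.60-fold higher (1.47 to 1.73).

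In RA, Gas1 was 6.78-fold lower in shRxr than in shGFP (5.76 to 8.02) and Ihh 4.31-fold lower (2.56 to 7.69). These were the 2 members past 2-fold, both lower, beside 3.74% of all genes higher and 2.62% lower. Gli3 and Cdon were each 1.53-fold lower (1.37 to 1.71 and 1.35 to 1.74), and Gli2 was 1.38-fold higher (1.26 to 1.51). Correction for GC content and length took the log2 difference from -2.69 to -2.41 for Gas1 and from -1.63 to -1.32 for Ihh. It took Smo from -0.41 to -0.14 and Gli2 from 0.46 to 0.66. Of the RA-induced genes listed as a treatment check, 6 of 10 were also at least 2-fold lower in this library, and their part in these values was not tested. The limma test over both treatments called 0 of the 10 genes, with 0% of all genes higher and 0.00811% lower. At an unadjusted p under 0.05 there were 2, both lower, Gas1 (-1.21 ± 0.53 SE) and Ihh (-1.18 ± 0.40 SE), and voom called 0. At that threshold 0.592% of all genes were higher and 0.641% lower. Without the untreated shRxr library, which leaves 1 library of that line, the estimate for Gas1 was -2.27.

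**Figure D4:**
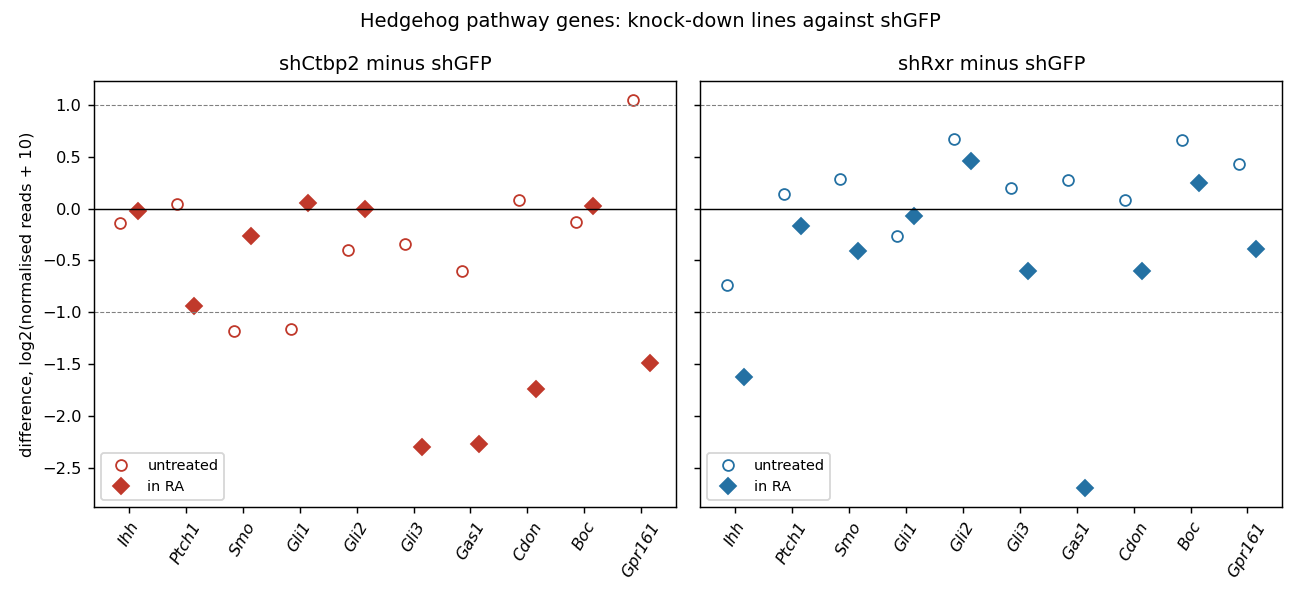
Difference of the shCtbp2 (left) and shRxr (right) lines from shGFP for each gene, as log2(normalised reads + 10), with open circles for untreated and diamonds for RA-treated libraries; each point compares 1 library with 1 library. In RA, Gli3, Gas1, Cdon and Gpr161 lie below -1 in shCtbp2, and Gas1 and Ihh in shRxr.

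Levels of different genes were compared per kilobase of the longest transcript. In untreated shGFP cells Smo was highest with 228 normalised reads per kilobase, followed by Gli2 (124), Ptch1 (80.1) and Gli1 (62.1). Gli3 (27.8), Boc (25.7) and Cdon (23.1) overlapped in their counting intervals, as did the lowest 3, Gas1 (5.98), Ihh (5.55) and Gpr161 (4.69). After RA, Smo (418) was still first, and Gas1 (375) had moved from among the lowest to the next place. Ptch1 (115), Gli2 (107) and Boc (104) overlapped with their neighbours in this order, and Gli3 (87.3) and Cdon (73.9) were set apart from them and from each other. Ihh (29.8) and Gli1 (22.9) overlapped, and Gpr161 (11.9) was lowest. Smo had the highest level per kilobase in all 6 libraries, though in untreated shCtbp2 cells its interval (99.4) overlapped that of Gli2 (93.2).

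As a description over 6 libraries that share lines, treatments and the GC shift named above, Gli3 and Cdon had the closest profiles among the 10 genes (Pearson r 0.96 of log2 levels), followed by Ptch1 and Gli3 (0.93) and Gas1 and Boc (0.88). Among 5918 genes of sufficient level and range, the most similar to Gas1 were Galnt12, Smyd4 and Ski (r 0.999 to 0.997). For Ihh these were Efemp2, Anxa11 and B3gnt1 (0.998 to 0.986), for Boc Dmrt1, Gsdmd and Porcn (0.996 to 0.994), and for Smo Anpep, Plcg2 and Cdr2l (0.993 to 0.992). For Gli3 they were Zcchc14, Vldlr and Notch2 (0.997 to 0.994) and for Cdon Zhx3, Aldh5a1 and Prrg3 (0.998 to 0.991). Gli1 was nearest to Phf19, Trp73 and Atg9b (0.965 to 0.959), Gpr161 to Lpgat1, Fam63b and Vezt (0.954 to 0.940) and Gli2 to Grm4, Btbd11 and Actn3 (0.935 to 0.860). With so few libraries high values arise easily: 320 genes reached 0.95 with Gas1 and 2 with Gpr161, counts that include the gene itself.

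The wider pathway was read from 5 lists that hold 76 further genes of the table, of which 65 were tested. RA raised 6 and lowered 4 of these 65 (limma, adjusted p under 0.05), where 10.8% of all genes tested rose and 4.63% fell. Among genes for ligands and their release, Scube1 (1.67 ± 0.33 SE, limma adjusted p = 0.0046) and Scube3 (1.41 ± 0.28 SE, limma adjusted p = 0.0050), secreted proteins that aid ligand release, rose besides Ihh, which makes 3 of 4 tested. Scube1 went from 9.66 to 91.6 normalised reads with RA in shGFP, from 0.827 to 16.8 in shCtbp2 and from 10.04 to 40.2 in shRxr. Of the 8 receptor and co-receptor genes, Gas1 and Boc alone passed. The endocytic receptor Lrp2 was at 668 and 2963 normalised reads in shGFP, at 454 and 393 in shCtbp2 and at 584 and 1515 in shRxr, an estimate of 1.10 that missed the threshold (limma adjusted p = 0.061). The inhibitor Hhip (0.67, limma adjusted p = 0.11) did not pass either.

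Of 23 genes of signal transduction and Gli regulation, 1 rose with RA and 0 fell, and an unadjusted p under 0.05 gave 3 and 1. The 1 was Prkaca (1.02 ± 0.27 SE, limma adjusted p = 0.022), a catalytic subunit of protein kinase A, which phosphorylates Gli proteins. Of 31 genes of the primary cilium 0 rose and 0 fell by limma, with 2 higher and 0 lower at an unadjusted p under 0.05 and 0 by voom. Their median effect was -0.23. For both lists, the shares of all genes tested were 10.8% raised and 4.63% lowered by limma, and 18.5% and 12.4% at the unadjusted threshold. In the RA response of shCtbp2 alone 6 of the 31 cilium genes were at least 2-fold lower and 1 higher, where 19.3% and 15.1% of all genes tested were. These counts were not corrected for GC content and length.

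Of 21 listed target genes 13 were tested, of which RA raised 3 and lowered 4, again beside 10.8% and 4.63% of all genes. Foxa2 (3.05 ± 0.36 SE), also on the endoderm list, Igf2 (3.23 ± 0.34 SE), a growth factor, and Snai1 (1.31 ± 0.28 SE), a transcription factor of epithelial change, rose. The growth factor Bmp4 (-1.88 ± 0.32 SE), the cell-cycle gene Ccnd1 (-1.47 ± 0.26 SE), the transcription factor Mycn (-1.50 ± 0.26 SE) and the Wnt antagonist Sfrp1 (-1.36 ± 0.29 SE) fell. These 7 had limma adjusted p values of 7.3e-05 to 0.0069. The listed targets that passed thus moved both ways, while Gli1 and Ptch1, which are on the same list, did not pass.

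No gene of the 65 was called in either knock-down line by limma, where an unadjusted p under 0.05 gave 2 higher and 9 lower in shCtbp2 and 1 and 1 in shRxr, and voom called 0. The shares of all genes at that threshold were 2.56% and 6.28% in shCtbp2 and 0.592% and 0.641% in shRxr. On the log2(normalised reads + 10) scale, Evc, Ccnd2 and Igf2 were at least 2-fold lower in shCtbp2 than in shGFP at both treatments. Evc, which acts with Smoothened at the base of the cilium, was at 62.9 and 116.8 normalised reads without and with RA in shCtbp2, against 307 and 285 in shGFP. That is 4.88-fold lower without RA (3.81 to 6.33) and 2.44-fold lower with it (1.98 to 3.03). Its partner Evc2, looked at after the values of Evc were seen, was 3.82-fold lower without RA (3.13 to 4.68) and 1.83-fold lower with it (1.53 to 2.19). Ccnd2 was 2.64-fold (2.28 to 3.07) and 7.77-fold (6.84 to 8.85) lower, and Igf2 2.60-fold (1.60 to 4.34) and 7.67-fold (6.46 to 9.15) lower. No ratio in this paragraph was corrected for GC content and length. As plain ratios, Scube1, with 1 read in untreated shCtbp2 cells, was 11.7-fold (1.73 to 499) and 5.44-fold (3.26 to 9.65) lower in shCtbp2. So was Scube2, too low to be tested, by 2.25-fold (1.29 to 4.09) and 4.85-fold (1.88 to 16.0). Gas1 was past 2-fold at both treatments too as a plain ratio, though within counting error without RA. On the scale with the added constant no gene of these lists was past 2-fold at both treatments in shRxr, and as a plain ratio Ihh was.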

How the data were processed

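The authors sequenced TruSeq libraries (HiSeq, per the labels) and used TopHat 1.4, HTSeq and the build mm9, per the submitters' processing notes. Which strand setting, annotation and HTSeq version they chose is not given in the sources used here. As deposited, values are log2 of normalised reads per gene plus 1, and the untransformed values of each library sum to 10000000. Every value was a whole number of reads (tolerance 1e-06), which gave each library's depth. All 6 columns carried a sample, and 25 symbols that had turned into dates were restored. Differences were tested with limma 3.58.1 (R 4.3.3) on log2(normalised reads + 10), with line and treatment as terms, on 12332 genes with a mean of at least 20, with Benjamini-Hochberg adjustment over all of them. The residual has 2 degrees of freedom, to which limma added 11.2 prior degrees of freedom drawn from all genes tested. The SEs and p-values thus rest mostly on a spread shared with other genes of similar level, and less on the gene's own. That spread is between lines or treatments, not between cultures. GC content and length were known for 98.4% of tested genes and came from the longest GENCODE transcript on GRCm38; the correction fitted each library's deviation on both. Tables were made with Python 3.11.15, numpy 2.4.6, pandas 2.3.3 and scipy 1.17.1. The fit was tested on simulated data. The 10 genes and all lists were chosen with earlier results of these data known. Genes outside the 10 were named if they passed limma, or were at least 2-fold apart in the same direction in every line or at both treatments, on that log2 scale. Shh, Dhh, Lrp2, Hhip, Scube1 and Scube2 as ratios, Evc2 and single marker genes fall outside this rule and were chosen after their values were seen. Similar profiles were the 3 highest Pearson r over the 6 libraries among those whose mean reached 50 and whose log2 range reached 1. Disp1, Sox1, Map2, Lum, Hbb-b1 and Tyrobp were listed but not matched. Alternatives were 2 other pseudocounts, 2 other filters, 2 other scalings, voom, the GC and length correction, and leaving out each line or library.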

Additional observations from a re-analysis of the deposited data

Results flagged for a closer look

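For 4 genes the RA response pointed in opposite directions in the shCtbp2 line and in another line, with every counting interval apart from a ratio of 1. These differences between lines were not tested, since each group has 1 library. Ptch1 was 1.44-fold higher with RA in shGFP and 1.16-fold higher in shRxr, and 1.38-fold lower in shCtbp2. Gli2 was 1.16-fold lower in shGFP and 1.34-fold lower in shRxr, and 1.14-fold higher in shCtbp2. Gli3 was 3.14-fold higher in shGFP and 1.78-fold higher in shRxr, and 1.29-fold lower in shCtbp2. Gpr161 was 2.54-fold higher in shGFP and 3.38-fold lower in shCtbp2. After correction for GC content and length, the shCtbp2 direction of Gpr161 stayed and that of Ptch1, Gli2 and Gli3 turned.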

How the results depend on the processing

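No paired analysis was possible because the labels give no replicate numbers, beyond the pairing of treatments by line that the fit for RA already holds. Among the alternatives, leaving out a line or either of its libraries gives the same RA estimate, so these fits are not separate checks. Gas1 and Boc rose with RA under all 17 alternatives, and Ihh under 10 of the 16 in which it was tested. Under the GC and length correction 5 of the 10 genes rose with RA and 1 fell, and 1 fell under equal upper quartiles and under median-of-ratios scaling. The share of all genes raised under that correction is not given here, so the count of 5 has no background beside it. Over all genes, RA raised 566 and lowered 246 with a mean minimum of 100, and lowered 862 with equal upper quartiles, 1039 by median of ratios and 1018 with the GC correction, against 1327 raised and 571 lowered as reported. For shCtbp2 the genes raised and lowered, 13 and 5 as reported, were 1 and 3 with a pseudocount of 1, with a mean minimum of 100 and by voom, 0 and 0 with no filter, 46 and 53 with equal upper quartiles, and 42 and 43 by median of ratios; the GC correction gave 3 raised. For shRxr 0 were lowered with no filter. With a pseudocount of 50, 0 members were 2-fold lower with RA in shCtbp2 and in shRxr, 0 were higher and 1 lower in untreated shCtbp2, and 1 was lower in RA-treated shRxr. With a pseudocount of 1, 1 member was lower in untreated shRxr. No shares of all genes at these pseudocounts are given beside these member counts. Signs turned in estimates near zero. The RA effect on Gpr161 was -0.013 with a pseudocount of 1, -0.0015 with equal upper quartiles and -0.061 by median of ratios. The shCtbp2 effect on Boc was 0.016 and 0.026 under these scalings. The shRxr effect on Smo was 0.040 with the GC correction, and that on Gpr161 was -0.010 with a pseudocount of 50. The cause was not tested.

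Leaving out 1 line or library at a time, a fit in which a lone library is taken to vary like the rest, gave 2 to 4 members raised and 0 to 1 lowered by RA, with 371 to 1754 genes raised and 86 to 1499 lowered. Without shGFP or 1 of its libraries 371 to 383 were raised and 86 to 92 lowered, without shCtbp2 564 to 640 and 193 to 208, and without shRxr 1498 to 1499 were lowered. For shCtbp2 it gave 0 to 2 members lowered, 0 to 243 genes raised and 0 to 1028 lowered, the highest without its untreated library. For shRxr it gave 0 to 1 member lowered, 0 to 5 genes raised and 0 to 20 lowered, the highest without its untreated library. Without the shGFP line no knock-down effect can be computed. The RA effect ranged from -0.13 to 0.36 for Ptch1 and from -0.55 to 0.71 for Gpr161. The shCtbp2 effect ranged from -0.36 to 0.20 for Ihh, -1.11 to 0.0049 for Gli1, -0.46 to 0.051 for Gli2, -0.24 to 0.13 for Boc and -1.28 to 0.84 for Gpr161. The shRxr effect ranged from -0.34 to 0.31 for Ptch1, -0.64 to 0.51 for Smo, -0.52 to 0.19 for Gli1, -0.89 to 0.49 for Gli3, -0.89 to 0.37 for Cdon and -0.81 to 0.86 for Gpr161. Depth limits Ihh in shRxr and in untreated cells, untreated Gas1 and RA-treated shCtbp2 Gpr161 most, at 5 to 28 reads each. Ihh and Gpr161 were not tested with a mean minimum of 100.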
